A study of Mus musculus with 10 samples.

Results

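The comparison described here set mammary epithelial cells labelled Bsecs, taken from Bptf knockout mice, against luminal mammary epithelial cells of Bptf wild-type mice. Genes were taken into it where the mean of the Bsecs value and the wild-type (WT) luminal value was 50 normalised reads or more, and 6352 of the 24000 genes in the deposited table met that rule. The ratio was recomputed from the 2 values as Bsecs over WT luminal cells, so that a gene called higher is higher in Bsecs. The rule looks at the size of the mean alone and not at the direction of the difference, but a gene that is silent in one population passes it only by being high in the other.

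Cells were isolated from mammary glands by flow cytometry after their female donors had been dosed with tamoxifen, 15 mg per kg summed over the doses, in every group. The study held 10 RNA-seq libraries in 5 groups of 2, of which 4 libraries belong to the populations compared here. The other 6 libraries were luminal cells labelled Bptf knockout (KO) and myoepithelial (basal) cells of each genotype. The labels neither spell out the name Bsecs nor give the Cre driver, the knockout allele, the ages, or whether mice were pooled, and a wild-type Bsecs group is not among the samples used here. Bsecs and WT luminal cells therefore differ in genotype and in sorted population together, and the parts of these in any difference cannot be told apart.

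The mammary epithelium is a bilayer in which luminal cells line the ducts and make milk, while basal or myoepithelial cells contract around them and rest on the basement membrane. Luminal cells carry the simple-epithelial keratins Krt8 and Krt18, and basal cells the stratified-type keratins Krt5 and Krt14 with the transcription factor p63 (gene Trp63) and smooth muscle actin. Bptf is the defining subunit of the chromatin remodelling complex NURF, which slides nucleosomes and thereby changes access to DNA.

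Each group is represented by a single deposited column instead of its separate libraries, and replicate spread is therefore missing from every difference reported below. Whole reads were recovered from the columns and summed to 3659403 in Bsecs and 2729006 in WT luminal cells, with at least 1 read for 12497 and 13035 genes. The interval beside a fold is an exact 95% binomial interval for the share of a gene's reads that fell in each column, and counting error is all that it covers. Where a column had 0 reads, the fold is given as a lower bound against a floor of 3 reads in that column. Rn45s, the precursor of ribosomal RNA, made up 32.2% of the Bsecs reads (95% Wilson interval 32.13% to 32.22%) and 10.6% of the WT luminal reads (10.56% to 10.63%). Its part in the differences between the columns was not tested. Counts were also made with the columns scaled by their read totals, once without Rn45s and once with it, and are given for a list described below where its count moved by more than 1.5 times.

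In the knocked-out gene itself the columns were close. Bptf had 645 reads in Bsecs and 640 in WT luminal cells, which was 1.24-fold higher in Bsecs (95% counting interval 1.11 to 1.39). Its direction depended on the scale, since the log2 ratio was 0.31 with the authors' size factors and -0.01 with totals without Rn45s. A count over the whole gene does not show whether part of it was deleted, so these reads do not check the labels.

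The labels were next set against markers of each cell type. In the WT luminal column Krt18 had 19786 reads and Krt8 5492, while Krt5 had 1, Trp63 4 and Krt14 54. The WT luminal column thus held the luminal keratins with Krt5, Trp63 and Krt14 at or near 0, although it had 462 reads of the basal marker Mme, 99 of Sox10, 55 of Fzd7 and 942 of Egfr. The Bsecs column held keratins of both kinds, with 3139 reads of Krt5, 8490 of Krt14 and 95 of Trp63 beside 671 of Krt8 and 2429 of Krt18. The contractile markers that define myoepithelium were low in Bsecs, with 4 reads of Cnn1, 19 of Myh11 and 137 of Acta2. In bulk RNA, fewer cells of a type and less RNA per cell cannot be told apart.

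Markers of cells that a sort could carry along were mostly low in both columns, with exceptions among the fibroblast genes and in others such as Flt1 and S100a8. The 12 fibroblast markers summed to 561.4 normalised reads in Bsecs and 944.7 in WT luminal cells, with Dcn at 188 of 506 reads in Bsecs and 868 of 1048 in WT luminal cells, while Col1a1 had 16 and 13 reads and Pdgfra 2 and 3. Col1a2 (41 and 0 reads), Fbln1 (65 and 0) and Dpt (92 and 1) were found almost only in the Bsecs column. The 12 endothelial markers summed to 224.1 and 125.3 normalised reads, with Flt1 at 179 and 36 reads and Pecam1 at 0 and 7. The 15 macrophage and dendritic markers matched in the table summed to 74.33 and 137.0, and 8 of them had no read in either column. Lymphocyte markers summed to 2.22 and 9.92, adipocyte markers to 31.06 and 107.3, and the neutrophil markers to 0 and 166.8, of which S100a8 made up nearly all. The Schwann and nerve markers summed to 306.2 and 467.8, and the pericyte markers to 49.92 and 183.9, with Notch3 at 9 and 178 reads. The part of such cells in the results was not tested.

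Over the 6352 genes, 586 (9.23%) were at least 4-fold higher in Bsecs and 610 (9.6%) at least 4-fold lower. The other 5156 did not reach 4-fold, and 3408 (53.7%) lay within 2-fold. The median log2 ratio was 0.14, and the middle of the distribution was wide, with the 25th and 75th percentiles at -0.77 and 1.02 and the 10th and 90th at -1.95 and 1.93. For 398 of the higher and 402 of the lower genes the whole counting interval lay past 4-fold. In 29 of the 586 higher genes the WT luminal column had no read, and in 32 of the 610 lower genes the Bsecs column had none. The split between higher and lower genes depended on the scale. With totals without Rn45s 418 genes were higher and 829 lower, and with totals including Rn45s 259 and 1196. Higher genes were thus 49.0% of the called genes with the authors' size factors, 33.5% with the first totals and 17.8% with the second. These totals lower every log2 ratio by 0.32 and by 0.72, so a difference of that size between the columns has no fixed direction.

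Genes just outside the rule on the mean were Plek2 (73 and 21 reads in Bsecs and WT luminal cells, mean 49.96) and Neurl4 (69 and 26 reads, mean 49.99). Just inside were Rsad2 (39 and 63 reads) and Exosc6 (52 and 47), both with a mean of 50.03.

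**Figure D1:**
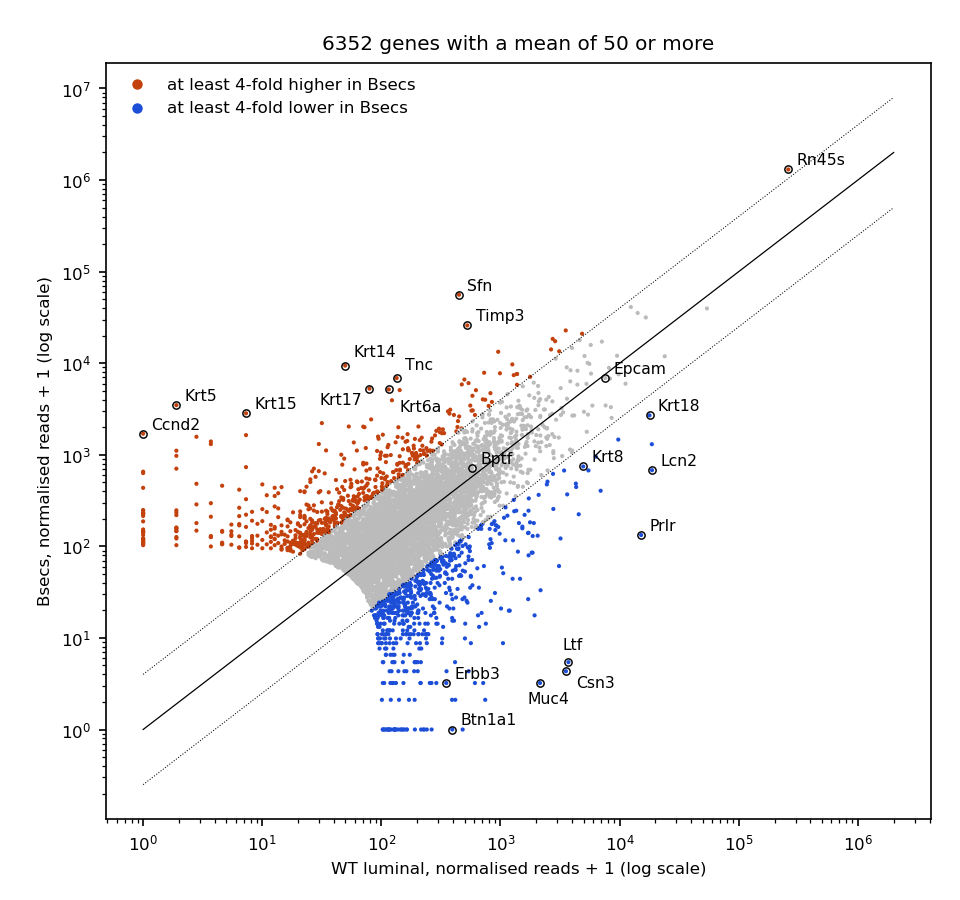
Each point is a gene, placed by its normalised reads plus 1 in WT luminal cells (horizontal axis) and in Bsecs (vertical axis), both on log scales, with the dotted lines at 4-fold and the named genes circled. The 586 genes at least 4-fold higher in Bsecs are orange, the 610 at least 4-fold lower are blue, and the rest are grey; Krt5, Krt15 and Krt14 lie at the upper left edge and Csn3, Ltf and Muc4 at the lower right.

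The keratins differed in opposite directions by type. Krt8 and Krt18 pair into the filament of simple epithelia, and both were lower in Bsecs. Krt8 had 671 reads in Bsecs and 5492 in WT luminal cells, 6.65-fold lower (95% interval 6.14 to 7.22), and Krt18 had 2429 and 19786 reads, 6.62-fold lower (6.35 to 6.91). The pair thus moved by the same amount within their intervals. The other simple-epithelial keratins did not reach 4-fold, with Krt19 at 6121 and 9219 reads and Krt7 at 1222 and 2300.

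The basal keratins were nearly absent from WT luminal cells. Krt5 had 3139 reads in Bsecs and 1 in WT luminal cells, a ratio of 3863 (95% interval 693 to 152600). Its filament partner Krt14 had 8490 and 54 reads, 193.5-fold higher (148 to 258). Krt15, a keratin of basal layers in stratified epithelia, had 2557 and 7 reads, 449.6-fold higher (218 to 1119). Krt17, which is induced in basal and wounded epithelium, had 4753 and 87 reads, 67.2-fold higher (54.4 to 84.1). The acidic keratins Krt14, Krt16 and Krt17 are close in sequence, as are Krt6a and Krt6b, and reads can be split among such copies in a way the sources used here do not describe.

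The sequences before the starts of these keratin genes are shown because Krt5, Krt8 and Krt18 belong to 1 keratin cluster and moved in opposite directions. They come from RefSeq promoter records on build GRCm38.p6, 5′ to 3′ on the gene's strand. Each was cut to end before the outermost start of that gene's transcripts in the GENCODE basic annotation. Other annotations were not searched. Krt5 is at chr15:101712906-101713155 on the minus strand, Krt8 at chr15:102004483-102004592 on the minus strand and Krt18 at chr15:102027966-102028179 on the plus strand, so the Krt8 and Krt18 windows lie 23.4 kb apart and those of Krt5 and Krt18 315 kb apart. Sfn, at chr4:133602169-133602418 on the minus strand, and Muc4, at chr16:32735636-32735885 on the plus strand, are shown as genes with large differences in either direction. Capitals mark a match to 1 of 7 motifs searched on both strands: TGANTCA for AP-1, GGAATG for TEAD factors, TTCNNNGAA for STAT factors, AGATAA for factors of the GATA family, TATAAA for the TATA box, CCAAT for the box of that name, and GGGCGG for the GC box.
Krt5: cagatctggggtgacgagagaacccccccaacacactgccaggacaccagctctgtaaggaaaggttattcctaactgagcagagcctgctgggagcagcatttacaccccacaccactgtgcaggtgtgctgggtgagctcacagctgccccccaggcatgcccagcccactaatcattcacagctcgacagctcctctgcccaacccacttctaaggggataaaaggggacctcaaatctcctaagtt
Krt8: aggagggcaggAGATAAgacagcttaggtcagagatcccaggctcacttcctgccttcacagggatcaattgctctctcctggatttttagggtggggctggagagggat
Krt18: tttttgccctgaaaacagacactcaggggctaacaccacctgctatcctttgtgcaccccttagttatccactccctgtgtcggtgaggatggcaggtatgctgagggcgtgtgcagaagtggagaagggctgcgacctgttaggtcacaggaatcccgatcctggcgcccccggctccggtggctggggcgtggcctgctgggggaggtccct
Sfn: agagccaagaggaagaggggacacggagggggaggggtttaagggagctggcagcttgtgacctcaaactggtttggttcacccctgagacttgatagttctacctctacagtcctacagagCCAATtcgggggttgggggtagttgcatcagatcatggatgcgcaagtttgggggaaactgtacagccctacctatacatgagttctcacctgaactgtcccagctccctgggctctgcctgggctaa
Muc4: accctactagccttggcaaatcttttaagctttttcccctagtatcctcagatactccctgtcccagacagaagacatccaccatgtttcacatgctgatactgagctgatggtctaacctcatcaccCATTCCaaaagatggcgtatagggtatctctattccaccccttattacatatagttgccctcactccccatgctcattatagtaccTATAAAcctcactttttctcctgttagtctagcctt

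The Krt8 window held 110 bases and the Krt18 window 214 after the cut, against 250 in the others. The shares below come from 250 bases without that cut, and so from longer windows than these. The Krt5 and Krt18 windows held no match to these motifs. Krt8 held AGATAA with its first base 99 bases before the end of the window, Sfn held CCAAT at 128 bases, and Muc4 held GGAATG on the reverse strand at 122 bases and TATAAA at 36 bases. Such short motifs are common. Among genes with a single promoter record, the 250 bases before the start held AGATAA in 4.52% of 354 higher genes, 5.99% of 317 lower genes and 4.37% of 3135 genes that were neither. GGAATG was held by 12.7%, 11% and 9.51%, TATAAA by 7.63%, 9.15% and 5.65%, and CCAAT by 34.7%, 33.1% and 35.9% of the same groups. The AP-1 motif was in 4.52% of higher, 5.36% of lower and 3.83% of the other genes, the STAT motif in 7.34%, 6.31% and 5.52%, and the GC box in 64.1%, 59.9% and 67.4%. Over the 22862 genes of the reference with 1 such record the shares were 10.4% for AGATAA, 12.6% for GGAATG, 13.6% for TATAAA, 34.7% for CCAAT, 6.96% for AP-1, 7.23% for STAT and 32.4% for the GC box. A match is a description of letters and not a binding site, and matches of 2 motifs can overlap.

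Surface proteins and junction genes of the luminal layer were lower in Bsecs or did not reach 4-fold. Of the 18 luminal keratins and surface proteins listed, 15 had a mean of 50 or more, of which 7 were lower, 0 higher and 8 neither. Beside this and each count of a list below stand the shares over all 6352 genes, 9.23% higher and 9.6% lower. The median log2 ratio over all 18 was -2.29, against -0.09 over the 14304 genes with a read, and it was -0.77 over the 15 with a mean of 50 or more, against 0.13 over the 6352. The membrane mucin Muc1 had 2 reads in Bsecs and 320 in WT luminal cells (a ratio of 130.0, interval 35.7 to 1078). Ceacam1, a luminal adhesion molecule, had 109 and 3540 reads, 26.4-fold lower (21.8 to 32.2). Prom1, which marks hormone-sensing luminal cells, had 169 and 986 reads, 4.74-fold lower (4.02 to 5.61). The pan-epithelial genes were not lower by this rule, with Epcam at 6219 and 8410 reads and E-cadherin (Cdh1) at 14270 and 6352.

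Of 20 transcription factors and related genes of the luminal lineage, 14 had a mean of 50 or more, 4 of them lower, 2 higher and 8 neither, against 9.6% lower and 9.23% higher over all genes. The higher count depended on the scale, with 4 lower and 1 higher with totals without Rn45s and 5 and 0 with totals including it. The median log2 ratio over the 20 was -1.34, or -0.87 with columns at 0 set to the floor, and -0.54 over the 14. Foxa1, a pioneer factor of hormone-sensing luminal cells, had 216 reads in Bsecs and 268 in WT luminal cells, and Gata3, needed for luminal identity, had 173 and 305. Neither was called. The luminal progenitor genes Kit, with 0 and 67 reads, and Elf5, with 1 and 27, had means under 50. Aldh1a3, a progenitor enzyme, was 10.9-fold lower (230 and 3082 reads, interval 9.52 to 12.5), and Elf3 was 4.93-fold lower (74 and 449 reads, 3.85 to 6.39). Cbfb, the partner subunit of Runx factors, was 6.12-fold higher (482 and 97 reads, 4.91 to 7.69), and Lmo4 was 4.15-fold higher (192 and 57 reads, 3.07 to 5.67). Lmo4 and Elf3 fall under 4-fold at the near end of their intervals.

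Hormone-sensing luminal cells carry the receptors for oestrogen, progesterone and prolactin and pass the signal on through paracrine factors. The prolactin receptor Prlr had 119 reads in Bsecs and 16820 in WT luminal cells, 114.8-fold lower (95.9 to 139). Esr1 had 60 and 358 reads, 4.85-fold lower (3.68 to 6.48), while Pgr (352 and 1089 reads, 2.51-fold lower, 2.23 to 2.84) and the paracrine ligand Areg (412 and 1554 reads, 3.07-fold lower, 2.75 to 3.42) did not reach 4-fold. Cited1, a partner of the oestrogen receptor, was 7.04-fold lower (220 and 1906 reads) and the chemokine Cxcl15 20.1-fold lower (18 and 445 reads). In all, 13 of 17 listed genes had a mean of 50 or more, with 6 lower, 0 higher and 7 neither, against 9.6% and 9.23% of all 6352 genes lower and higher. The median log2 ratio was -1.33 over the 17 and -1.61 over the 13.

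The milk and alveolar genes included some of the largest folds toward WT luminal cells. Ltf, which encodes lactoferrin, had 4 reads in Bsecs and 4126 in WT luminal cells, 838-fold lower (327 to 3077), and the casein Csn3 had 3 and 3931 reads, a ratio of 1065 (364 to 5165). Btn1a1, which coats the milk fat globule, had 0 and 436 reads, at least 118-fold lower. Trf (transferrin) was 116.1-fold lower with 15 and 2144 reads (70.2 to 208), and Lcn2 (lipocalin 2) 27.6-fold lower with 611 and 20772 reads (25.5 to 30.0). Spp1 (osteopontin) had 4 and 223 reads and the lipid droplet protein Plin2 9 and 226, which were 45.3-fold and 20.4-fold lower. Of the 26 listed genes, 13 had a mean of 50 or more, with 8 lower, 1 higher and 4 neither, against 9.6% and 9.23% of all 6352 genes lower and higher. The median log2 ratio over all 26 was -2.41, or -1.67 with columns at 0 set to the floor, and -4.79 over the 13.

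Milk genes did not all move together. The exception was Lpo, lactoperoxidase, with 206 reads in Bsecs and 0 in WT luminal cells, at least 84.5-fold higher. Stat5a, the transcription factor that drives milk genes below the prolactin receptor, had 639 and 481 reads and Stat5b 132 and 226, and neither was called. The caseins Csn1s1 (0 and 21 reads) and Csn2 (0 and 1) and the whey protein Wap (0 and 0) were near 0 in both columns, which came from glands not stated to be lactating.

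**Figure D2:**
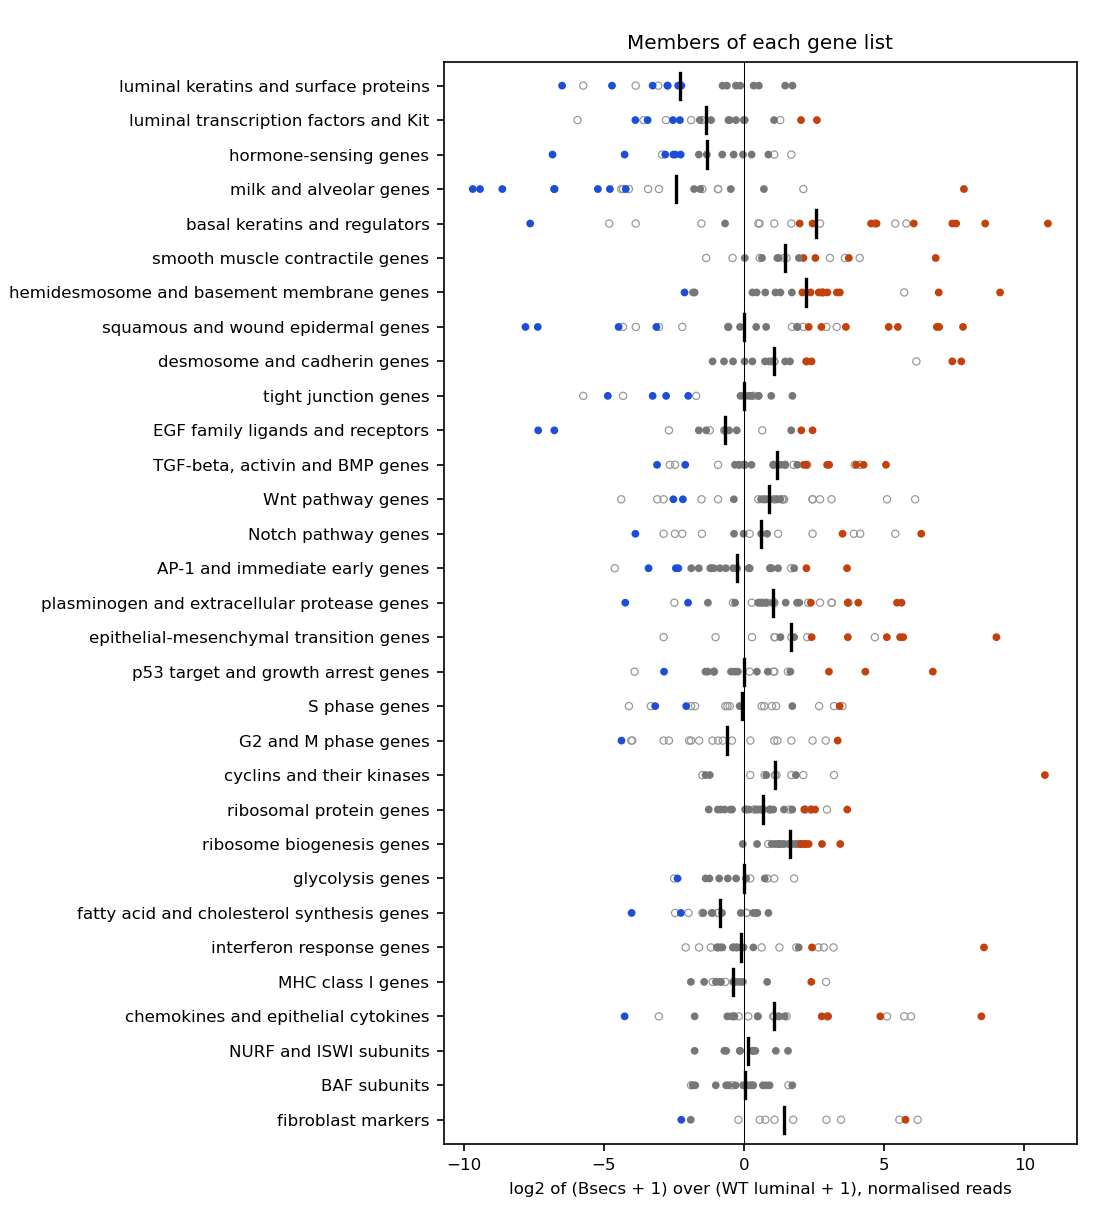
Each line of points is a gene list, and each point a member with a read, at the log2 of its Bsecs value plus 1 over its WT luminal value plus 1. Filled points have a mean of 50 or more (orange at least 4-fold higher, blue at least 4-fold lower), open points lie under that mean, and the black tick is the median over all matched members, for example -2.29 for luminal keratins and surface proteins and 2.58 for basal keratins and regulators.

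The basal list was the opposite of the luminal one. Of 22 basal keratins and regulators, 11 had a mean of 50 or more, of which 9 were higher, 1 lower and 1 neither, against 9.23% and 9.6% of all 6352 genes higher and lower. The median log2 ratio over all 22 was 2.58, or 2.21 with columns at 0 set to the floor, and 4.73 over the 11. With totals without Rn45s 7 were higher and 2 lower, and with totals including it 6 and 2. P-cadherin (Cdh3), the cadherin of the basal layer, had 434 reads in Bsecs and 2 in WT luminal cells, a ratio of 267 (73.5 to 2212). Trp63 had 95 and 4 reads, 29.2-fold higher (11.1 to 109.5), and Procr, a surface protein used to isolate mammary stem cells, had 152 and 6, 31.2-fold higher (14 to 86.3). The regulators Id4 (49 and 0 reads), Snai2 (22 and 0) and Jag2 (37 and 0) had means under 50.

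Several basal genes went the other way or were not called. Mme, the peptidase CD10 that marks myoepithelial cells, had 1 read in Bsecs and 462 in WT luminal cells, a ratio of 375 toward WT luminal cells (67.0 to 14860). Sox10, a neural crest and mammary progenitor factor, had 2 and 99 reads, and Fzd7 had 15 and 55, with means under 50. The epidermal growth factor receptor Egfr had 478 and 942 reads and was not called. In the basal columns Mme stood at 1381 and 2086 normalised reads on a scale common to the 5 columns, against 1.05 in Bsecs.

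Smooth muscle genes were higher in Bsecs than in WT luminal cells where they were called at all. Of 18 genes, 9 had a mean of 50 or more, with 4 higher, 0 lower and 5 neither, against 9.23% and 9.6% of all 6352 genes higher and lower, and the median log2 ratio over the 18 was 1.47. Totals without Rn45s left 3 higher, and totals including Rn45s left 1, with a median of 0.90. The myosin light chain Myl9 had 102 and 0 reads, at least 41.9-fold higher, and the tropomyosin Tpm2 had 5981 and 551, 13.4-fold higher (12.2 to 14.6). Caldesmon (Cald1) was 5.84-fold higher with 2364 and 498 reads (5.30 to 6.45), and the actin Acta2 4.44-fold higher with 137 and 38 reads (3.08 to 6.54). On the common scale Acta2 was 144 in Bsecs against 16620 and 11620 in basal cells, and Myl9 107.5 in Bsecs against 1288 and 736. Acta2 and Myl9 of Bsecs thus lay above WT luminal cells and far below the basal columns. Tagln, Myh11 and Mylk did likewise, at 178.1, 20.02 and 30.55 in Bsecs against 78.51, 7.137 and 0.8922 in WT luminal cells. These 3 genes stood at 2909, 4600 and 2359 in the smaller basal column and 1392, 4061 and 1559 in the larger. Some other members did not lie far below both basal columns. Cald1 was 2491 against 7252 and 2854 in the smaller and larger basal column, Tpm2 6301 against 9546 and 7059, and Tpm1, which was not called, 17020 against 12210 and 8442. All of these values are single columns.

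The genes that fasten basal cells to the basement membrane were in large part higher in Bsecs. Of 22 hemidesmosome and basement membrane genes, 20 had a mean of 50 or more, with 11 higher, 1 lower and 8 neither, against 9.23% and 9.6% of all 6352 genes, and the median log2 ratio was 2.23. With totals without Rn45s 10 were higher and 3 lower, and with totals including it 8 and 3. Collagen XVII (Col17a1), the membrane collagen of the hemidesmosome, had 1417 reads in Bsecs and 2 in WT luminal cells, a ratio of 872 (241 to 7207). Lama3 and Lamb3, laminin chains to which hemidesmosomes bind, were higher by 9.98-fold (1833 and 226 reads, 8.69 to 11.5) and by 10.8-fold (955 and 109 reads, 8.84 to 13.3).

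The laminin receptors followed in part. Itgb4 was 6.35-fold higher (1738 and 337 reads, 5.64 to 7.15), Itga3 6.71-fold (2452 and 450 reads, 6.06 to 7.43) and Itgb1 4.23-fold (5243 and 1525 reads, 4.0 to 4.48), while Itga6, the partner of Itgb4, had 1094 and 987 reads and was not called. The collagen IV chains Col4a1 (302 and 52 reads, 7.15-fold, 5.31 to 9.79) and Col4a2 (210 and 1 reads, a ratio of 258.5, 45.9 to 10260) were higher. Lamb2 was 4.45-fold lower (34 and 186 reads, 3.07 to 6.61). The cytoskeletal linkers Dst (873 and 3655 reads) and Plec (2394 and 2396), which tie hemidesmosomes to keratin, were not called.

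Squamous and wound genes fell into separate parts. Sfn, the 14-3-3 protein stratifin, had 50397 reads in Bsecs and 497 in WT luminal cells, 124.8-fold higher (114 to 137). The wound keratins Krt6a (4664 and 127 reads, 45.2-fold, 37.9 to 54.4) and Krt16 (4586 and 157 reads, 35.9-fold, 30.7 to 42.4) were higher. So were the epidermal galectin Lgals7 (1477 and 7 reads, 259.7-fold, 125.7 to 647) and the cornified envelope gene Sprr1a (5286 and 524 reads, 12.4-fold, 11.3 to 13.6). Calml3, a calmodulin-like protein of keratinocytes, had 105 and 0 reads, at least 43.1-fold higher. Other genes of the cornified layer went the other way. Tgm1, the cross-linking enzyme of the envelope, was 24.4-fold lower (9 and 270 reads, 12.7 to 53.9), Sbsn 9.11-fold lower (19 and 213 reads), and the protease Klk10 had 2 and 793 reads, a ratio of 322 toward WT luminal cells (88.9 to 2665). Loricrin (Lor) had no read in either column, Krt10 had 3 and 6 and Krt1 0 and 15. Of the 34 genes matched, 18 had a mean of 50 or more, with 8 higher, 4 lower and 6 neither, against 9.23% and 9.6% of all 6352 genes. Over all 34, of which 7 had no read in either column, the median log2 ratio was 0.0, and over the 18 it was 1.90.

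Desmosomes tie keratin filaments of neighbouring cells together, and tight junctions seal the luminal layer. Of 15 desmosome and cadherin genes with a mean of 50 or more, 5 were higher, 0 lower and 10 neither, against 9.23% and 9.6% of all 6352 genes, with a median log2 ratio of 1.08 over the 19 listed. Totals without Rn45s left 3 higher and totals including it 2. The desmosomal cadherin Dsg3, typical of basal keratinocytes, had 193 and 0 reads, at least 79.2-fold higher, while Dsg2 had 800 and 2145 reads and was not called. Perp was 5.31-fold higher (2102 and 487 reads, 4.81 to 5.88), and the plaque proteins Pkp1 and Pkp4 4.66-fold (667 and 176 reads, 3.94 to 5.54) and 4.74-fold (859 and 223 reads, 4.09 to 5.52). The core plaque protein desmoplakin (Dsp) had 1693 and 1696 reads.

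Of 13 tight junction genes with a mean of 50 or more, 4 were lower, 0 higher and 9 neither, against 9.6% and 9.23% of all 6352 genes lower and higher. The median over the 19 listed was 0.0. Claudin 1 (Cldn1) was 30.0-fold lower (27 and 996 reads, 20.5 to 45.7) and claudin 3 (Cldn3) 9.93-fold lower (23 and 281 reads, 6.48 to 15.9). Claudin 4 (Cldn4) had 37070 and 13795 reads, 3.31-fold toward Bsecs (3.24 to 3.37), and was not called. The claudin 4 ratio keeps its sign under each scale tried. The scaffolds Tjp1 (1010 and 1244 reads) and Ocln (234 and 315) were not called.

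In the EGF family 2 receptors were called lower. Erbb3 and Erbb4, the neuregulin receptors of luminal cells, were lower in Bsecs, with 2 and 388 reads for Erbb3 (a ratio of 158, 43.3 to 1306) and 0 and 179 for Erbb4 (at least 48.5-fold). Erbb2 had 354 and 135 reads and was not called. Among ligands, Nrg1 was 5.55-fold higher (194 and 43 reads, 3.97 to 7.92) and epigen (Epgn) 4.12-fold higher (1749 and 522 reads, 3.74 to 4.56), and Hbegf (492 and 726 reads) and Tgfa (114 and 204) were not called. In sum 2 of 10 genes with a mean of 50 or more were higher and 2 lower, against 9.23% and 9.6% of all 6352 genes, and the median log2 ratio of the 15 listed was -0.68. The calls of the ligands depended on the scale, since 1 gene was higher and 2 lower with totals without Rn45s (median -1.0) and 0 and 4 with totals including it (median -1.4).

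Ligands of the TGF-beta family differed in direction by member. Activin is a dimer of inhibin beta chains, and the chain Inhba was 16.2-fold higher in Bsecs (1067 and 81 reads, 12.9 to 20.6) while Inhbb was 4.31-fold lower (113 and 599 reads, 3.52 to 5.31). Tgfb1 was 20.1-fold higher (360 and 22 reads, 13.1 to 32.5) and Tgfb2 7.83-fold higher (1343 and 211 reads, 6.77 to 9.10), while Tgfb3 was 8.98-fold lower (18 and 199 reads, 5.54 to 15.5). Follistatin (Fst), which binds and blocks activin, was 39.4-fold higher (192 and 6 reads, 17.8 to 109). The latency protein Ltbp1 was 8.22-fold higher (2800 and 419 reads, 7.42 to 9.14), and the inhibitor Smad7 4.75-fold higher (193 and 50 reads, 3.46 to 6.62). The receptors Tgfbr1 (90 and 92 reads), Tgfbr2 (393 and 606) and Bmpr1a (460 and 556) were not called, nor were Smad2, Smad3 and Smad4. Over the 30 genes listed the median log2 ratio was 1.18. With a mean of 50 or more, 7 of 19 were higher and 2 lower, against 9.23% and 9.6% of all 6352 genes, so the share of lower genes was near that over all genes. Either set of totals gave 5 higher and 2 lower.

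Few Wnt genes reached the level needed for a call. Of 32 listed, 10 had a mean of 50 or more, with 2 lower, 0 higher and 8 neither, against 9.6% and 9.23% of all 6352 genes lower and higher. The median log2 ratio nonetheless lay toward Bsecs, at 0.88 over the 32 and 0.74 over the 10. Over the 32 it was 0.65 with columns at 0 set to the floor. It was 0.56 with totals without Rn45s and 0.16 with totals including it. Wnt4, a paracrine signal of hormone-sensing cells, was 5.90-fold lower (27 and 196 reads, 3.93 to 9.18) and Wnt5b 4.59-fold lower (63 and 356 reads, 3.5 to 6.10). Wnt10a (61 and 0 reads) and Wnt6 (30 and 0) had reads in Bsecs alone, with means under 50. The target gene Axin2 had 5 and 0 reads.

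Of 17 Notch pathway genes, 7 had a mean of 50 or more, with 2 ligands higher, 1 receptor lower and 4 neither, against 9.23% and 9.6% of all 6352 genes higher and lower. The ligand Dll1 had 266 and 3 reads, a ratio of 109.1 (36.9 to 532.5), and Jag1 was 11.5-fold higher (1410 and 151 reads, 9.71 to 13.7). Notch3 was 16.1-fold lower (9 and 178 reads, 8.28 to 35.7), and Notch1 (309 and 488 reads) and Notch2 (808 and 651) were not called. Under the mean of 50 the ligand Dll4 had 5 and 39 reads and the receptor Notch4 25 and 1, each opposite to the called members of its kind. The target Hes1 had 61 and 76 reads. The median log2 ratio of the 17 genes was 0.61, and it was -0.11 with totals that include Rn45s.

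Immediate early genes, which respond within minutes to growth factors and to handling of cells, were mostly not called. Of 23 genes with a mean of 50 or more, 18 were neither, 2 higher and 3 lower, shares near the 9.23% and 9.6% of all 6352 genes. With totals without Rn45s 1 was higher and 4 lower, and with totals including it 1 and 5. Fos was 5.43-fold lower in Bsecs (152 and 1015 reads, 4.57 to 6.48), Fosb 10.7-fold lower (161 and 2112 reads, 9.08 to 12.6) and Atf3 5.09-fold lower (606 and 3796 reads, 4.67 to 5.55). Their partners Jun (1948 and 1243 reads) and Junb (682 and 440) were not called. Egr3 was 13.1-fold higher (477 and 45 reads, 9.60 to 18.1) and Klf4 4.69-fold higher (895 and 235 reads, 4.06 to 5.43).

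Of 19 epithelial-mesenchymal transition genes, 8 had a mean of 50 or more, with 6 higher, 0 lower and 2 neither (Itga5, 598 and 299 reads, and Fosl1, 221 and 78), against 9.23% and 9.6% of all 6352 genes, and the median log2 ratio over the 19 was 1.69, or 1.30 with columns at 0 set to the floor. Has2, a hyaluronan synthase, had 877 and 1 reads, a ratio of 1079 (193 to 42680), and its receptor Cd44 was 5.32-fold higher (12745 and 2949 reads, 5.11 to 5.54). Fibronectin (Fn1) was 52.6-fold higher (427 and 10 reads, 28.3 to 110.4) and tenascin C (Tnc) 51.6-fold higher (6201 and 148 reads, 43.8 to 61.1). Vimentin (Vim) had 113 and 3 reads, a ratio of 46.4 (15.5 to 228). The transcription factors that give the list its name were low in both columns, with Zeb1 at 17 and 17 reads, Zeb2 at 8 and 4, Snai1 at 0 and 7 and Twist1 at 0 and 0. Snai2, a further one, had 22 and 0 reads, at least 9.03-fold toward Bsecs, with a mean under 50. The fibroblast values above stand beside these genes, since Fn1 and Vim are also fibroblast genes, and the part of fibroblasts was not tested.

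Among extracellular proteases and their inhibitors, the largest folds toward Bsecs belonged to inhibitors. Timp3, an inhibitor of metalloproteases, was 49.2-fold higher (23304 and 583 reads, 45.3 to 53.5). The plasminogen activator inhibitor Serpinb2 was 45.4-fold higher (1180 and 32 reads, 32.0 to 66.7), while the activators Plau (1558 and 1354 reads) and Plat (54 and 44) and the receptor Plaur (1642 and 991) were not called. The proteases Adam8 (1424 and 103 reads, 17.0-fold, 13.9 to 21.0) and Mmp13 (118 and 27 reads, 5.38-fold, 3.52 to 8.50) were higher. Mmp15 was 20.5-fold lower (10 and 252 reads) and Adam10, a sheddase of Notch and of EGF-family ligands, 4.01-fold lower (159 and 785 reads, 3.38 to 4.79). Over 17 genes with a mean of 50 or more, 5 were higher, 2 lower and 10 neither, against 9.23% and 9.6% of all 6352 genes, so the share of lower genes was near that over all genes. The median over the 32 listed was 1.03.

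Most proliferation genes were too low to be called, with an exception among the cyclins. Cyclin D2 (Ccnd2), which drives entry into S phase, had 1531 reads in Bsecs and 0 in WT luminal cells, at least 628-fold higher. Cyclin D1 (Ccnd1) had 684 and 485 reads and Cdk4 304 and 103, and neither was called. Among 5 cyclin and kinase genes with a mean of 50 or more, 1 was higher and 0 lower, against 9.23% and 9.6% of all 6352 genes. With totals including Rn45s, 1 was higher and 1 lower. Of 22 G2 and M phase genes only 2 had a mean of 50 or more: Anln, a scaffold of the cleavage furrow, was 10.2-fold higher (1514 and 183 reads, 8.73 to 11.9) and the checkpoint protein Mad2l1 21.1-fold lower (45 and 1169 reads, 15.7 to 29.1). The cycling markers Mki67 (3 and 34 reads), Top2a (1 and 4) and Cdk1 (0 and 6) were near 0 in Bsecs and low in WT luminal cells. Among 5 S phase genes with that mean, Slbp was higher and Mcm4 and Mcm6 lower.

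Arrest genes gave a mixed result. The inhibitor p21 (Cdkn1a) was 8.17-fold higher in Bsecs (4572 and 689 reads, 7.54 to 8.86), and the p53 targets that act in apoptosis, Pmaip1 (115 and 6 reads, 23.6-fold, 10.5 to 65.6) and Bbc3 (95 and 0 reads, at least 39.0-fold), were higher. The p53 target Ccng1 was 7.42-fold lower (30 and 274 reads, 5.08 to 11.2), and Mdm2 (195 and 280 reads) was not called. The remaining genes of 13 with a mean of 50 or more did not reach 4-fold, and the median over the 21 listed was 0.0. Of the 13, 3 were thus higher and 1 lower, against 9.23% and 9.6% of all 6352 genes. Both sets of totals left 12 genes with a mean of 50 or more, with 2 higher and 1 lower without Rn45s and 2 and 3 with it.

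Ribosome biogenesis genes, which make and process ribosomal RNA in the nucleolus, were shifted toward Bsecs as a group. With the authors' size factors all but 1 of the 22 members with a mean of 50 or more had a higher value in Bsecs, the exception being Nhp2 (207 and 263 reads). The share of all 6352 genes with a higher value in Bsecs was not counted. The median log2 ratio was 1.68 over the 22, against 0.13 over the 6352. Of the 22, 7 were called higher, 0 lower and 15 neither, against 9.23% and 9.6% of all 6352 genes higher and lower. The median log2 ratio of the 23 matched genes was 1.63, 1.30 with totals without Rn45s, under which 3 were called higher, and 0.91 with totals that include Rn45s, under which 2 were. Nucleophosmin (Npm1) was 10.8-fold higher (7090 and 808 reads, 10 to 11.6) and the polymerase I subunit Polr1b 7.02-fold higher (234 and 41 reads, 5.02 to 10). Nucleolin (Ncl) had 13230 and 4420 reads, 3.68-fold (3.56 to 3.81), short of the call. The transcript these genes process, Rn45s, took the larger share of reads in the Bsecs column as given above, and whether the library preparation or the cells set that share was not tested.

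Ribosomal proteins had a smaller shift, with a median log2 ratio of 0.67 over 30 genes that became -0.02 with totals including Rn45s. Rpl3 (146 and 13 reads, 13.8-fold, 7.83 to 26.6), Rpl13 (1252 and 291 reads, 5.30-fold), Rpl10a and Rpl15 were higher, 0 were lower and 20 of 24 were neither, against 9.23% and 9.6% of all 6352 genes higher and lower. Totals including Rn45s left 1 of the ribosomal protein genes higher. Many processed pseudogenes resemble these genes, and their reads are uncertain for that reason.

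Metabolic genes were mostly not called, and of all 6352 genes 9.23% were higher and 9.6% lower. Among 12 genes of fatty acid and cholesterol synthesis with a mean of 50 or more, 2 were lower, namely the desaturase Scd1 (19 and 394 reads, 16.9-fold, 10.7 to 28.3) and squalene synthase Fdft1 (62 and 368 reads, 4.82-fold, 3.68 to 6.42), and 10 were neither. The median of the 20 listed was -0.85, and -0.06 with columns at 0 set to the floor. Of 9 glycolysis genes with that mean 1 was lower (2 with totals including Rn45s), the regulator Pfkfb3 (300 and 1917 reads, 5.19-fold, 4.60 to 5.88). Gapdh (2 and 19 reads) and Eno1 (0 and 0) were near 0 in both columns, which is unlike cells in general, and no difference was read from them.

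Interferon and antigen presentation genes were mostly not called, and of all 6352 genes 9.23% were higher and 9.6% lower. With the authors' size factors the share of higher genes in both lists was near that over all genes. Of 15 interferon response genes with a mean of 50 or more, 2 were higher and 13 neither, among them Irf1 (163 and 243 reads). Over the 25 listed the median was -0.09, and -0.81 with totals including Rn45s, under which 1 was called higher. The exceptions were Ifi202b, with 1258 and 3 reads, a ratio of 516 (176 to 2506), and Ifitm3, 5.37-fold higher (3599 and 825 reads, 4.98 to 5.80). Ifi202b has close copies in its gene cluster. Of 12 MHC class I genes only Psmb10 was called (98 and 22 reads, 5.48-fold higher), and B2m had 960 and 4406 reads, 3.73-fold lower (3.48 to 4.0), just under the call. The median over the 16 listed was -0.38. It was -0.70 with totals without Rn45s, under which 1 was also called lower, and -1.10 with totals including it, under which 2 were lower and 0 higher.

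Secreted immune signals were higher for 4 of 16 chemokines and cytokines with a mean of 50 or more, lower for 1 and neither for 11, against 9.23% and 9.6% of all 6352 genes. Both sets of totals gave 4 higher and 2 lower. Csf2, the growth factor GM-CSF, had 1179 and 3 reads, a ratio of 484 (165 to 2349), while Csf3 (3453 and 3027 reads) and Csf1 (734 and 1152) were not called. Ccl20 was 32.9-fold higher (214 and 8 reads, 16.4 to 77.2), Cxcl3 8.34-fold (149 and 22 reads, 5.31 to 13.7) and Ccl2 6.93-fold (321 and 57 reads, 5.22 to 9.36). Cxcl14, an epithelial chemokine, had 55 and 0 reads with a mean under 50, and stood at 1393 and 1086 on the common scale in basal cells.

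No subunit of the NURF and ISWI complexes or of the BAF complex was called with the authors' size factors, against 9.23% and 9.6% of all 6352 genes called higher and lower. With either set of totals 1 NURF or ISWI subunit and 2 BAF subunits were called lower. Of 11 NURF and ISWI genes with a mean of 50 or more, Smarca5, the ATPase, had 262 and 108 reads, 2.99-fold toward Bsecs (2.38 to 3.77), and Cecr2 had 41 and 174 reads, 3.45-fold toward WT luminal cells (2.44 to 4.97). The median log2 ratio was 0.16 over the 12 listed and -0.01 with totals without Rn45s, so it has no fixed sign. Among 15 BAF genes the ATPases Smarca4 (778 and 601 reads) and Smarca2 (48 and 120) were not called, and the median over the 18 listed was 0.03, or -0.29 with totals without Rn45s.

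Other genes among the largest folds fall outside these lists. Higher in Bsecs were the semaphorin and VEGF receptor Nrp2 (413 and 4 reads, 127.1-fold, 49.3 to 469), the IGF-binding protein Igfbp4 (374 and 6 reads, 76.7-fold), the transporter Slco3a1 (1998 and 34 reads, 72.3-fold, 51.6 to 105), the chondroitin sulfotransferase Chst11 (294 and 7 reads, 51.7-fold), the polarity protein Pard6g (237 and 6 reads, 48.6-fold) and Kctd12 (660 and 7 reads, 116.0-fold, 56.0 to 289.8). Lower in Bsecs were the histone gene Hist1h2bc (7 and 1163 reads, 135-fold), the synaptic adhesion gene Nrxn3 (4 and 460 reads, 93.4-fold), the complement regulator Cd55 (7 and 625 reads, 72.5-fold) and the prostaglandin E synthase Ptges (17 and 1304 reads, 62.3-fold). Fam25c (29 and 2407 reads, 67.4-fold), the mucus protein Fcgbp (23 and 1894 reads, 66.9-fold), the collagen Col8a1 (17 and 1326 reads, 63.4-fold) and the deacetylase Hdac11 (8 and 557 reads, 56.6-fold) were lower as well. The list closed with the cysteine dioxygenase Cdo1 (12 and 835 reads, 56.5-fold), the immune checkpoint ligand Vtcn1 (11 and 733 reads, 54.1-fold), the whey acidic protein family gene Wfdc18 (54 and 3440 reads, 51.8-fold) and the kinase Mast3 (4 and 237 reads, 48.1-fold). Near 0 in Bsecs were the mucin Muc4 (2 and 2382 reads, a ratio of 968, 268 to 7995), the lipoxygenase Alox15 (1 and 825 reads, 670.3, 120 to 26510) and the nucleoside transporter Slc28a3 (2 and 676 reads, 275, 75.7 to 2272).

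The authors' deposited table gives a DESeq p-value for each of 14304 genes with a read, and 614 (4.29%) were under 0.05 unadjusted. After Benjamini-Hochberg adjustment over all of them, 17 genes (0.119%) were higher in Bsecs and 13 (0.0909%) lower, with adjusted p from 0.00838 to 0.0495. These p-values compare 1 column with 1 column and hold no spread between replicates. Among the higher genes were the basal and hemidesmosomal Krt5, Krt15, Cdh3 and Col17a1, the matrix genes Has2 and Ltbp4 (635 and 1 reads, a ratio of 782, 140 to 30920), the epidermal Lgals7, and Csf2, Ifi202b and Kctd12. The other 7 were Ccnd2 and 6 genes of no list: Gfra2, a GDNF-family receptor (568 and 0 reads, at least 233-fold), Skint3 (589 and 0, at least 242-fold), Igfbp3 (392 and 0, at least 161-fold), the decoy receptor Il1r2 (223 and 0, at least 91.5-fold), the enzyme Cth (222 and 0, at least 91.1-fold) and the actin bundler Fscn1 (998 and 1 reads, a ratio of 1228, 220.0 to 48560).

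Of the 13 lower genes, 3 were of the milk list, namely Csn3, Ltf and Btn1a1. Others were Muc4, the carbonic anhydrase Car2 (0 and 533 reads, at least 144-fold) and Smim22 (0 and 292 reads, at least 79.1-fold). The rest were Alox15, Slc28a3, Klk10, Hist1h2bc, Mme, the methyltransferase Lcmt1 (1 and 434 reads, a ratio of 353, 63.0 to 13960) and Arhgef6 (3 and 598 reads, a ratio of 162, 55.1 to 788). In 9 of the 30 genes 1 column had no read. Large folds with many reads could lie far from passing, since the unadjusted DESeq p-value was 0.7 for Sfn and 0.222 for Timp3.

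The columns not used in the ratio place these genes in the gland. The names of the basal columns conflict between the deposited tables, so they are called here the smaller (2036681 reads) and the larger (2359861 reads), and the column labelled KO luminal comes from libraries whose source label names wild-type mice. Each basal column was set against the column labelled KO luminal on the common scale, with 1 added to each value. In the smaller basal column 330 (5.2%) of the 6352 genes were at least 4-fold higher and 894 (14.1%) lower, and in the larger 290 (4.57%) and 801 (12.6%).

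Of the 586 genes higher in Bsecs, 126 (21.5%) were at least 4-fold higher in the smaller basal column and 113 (19.3%) in the larger, while 70 (11.9%) and 54 (9.22%) were lower. Of the 610 genes lower in Bsecs, 319 (52.3%) and 293 (48.0%) were at least 4-fold lower in the basal columns, and 12 (1.97%) and 13 (2.13%) higher. The genes lower in Bsecs were thus at least 4-fold lower in basal cells about as often as not. Most genes higher in Bsecs were not 4-fold higher in basal cells. Differences under 4-fold were not counted here. Every gene lower in Bsecs passed the rule on the mean through its WT luminal value, and the contrast here is with another column labelled luminal. Every gene higher in Bsecs passed it through its Bsecs value, while the 6352 genes include those that passed through the WT luminal value. The way the genes of either direction were chosen thus bears on their share. The shares over all 6352 genes are not a like background for them, and the directions cannot be compared with each other. Both basal contrasts share the column labelled KO luminal, and all are single columns, so the shares carry no test.

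**Figure D3:**
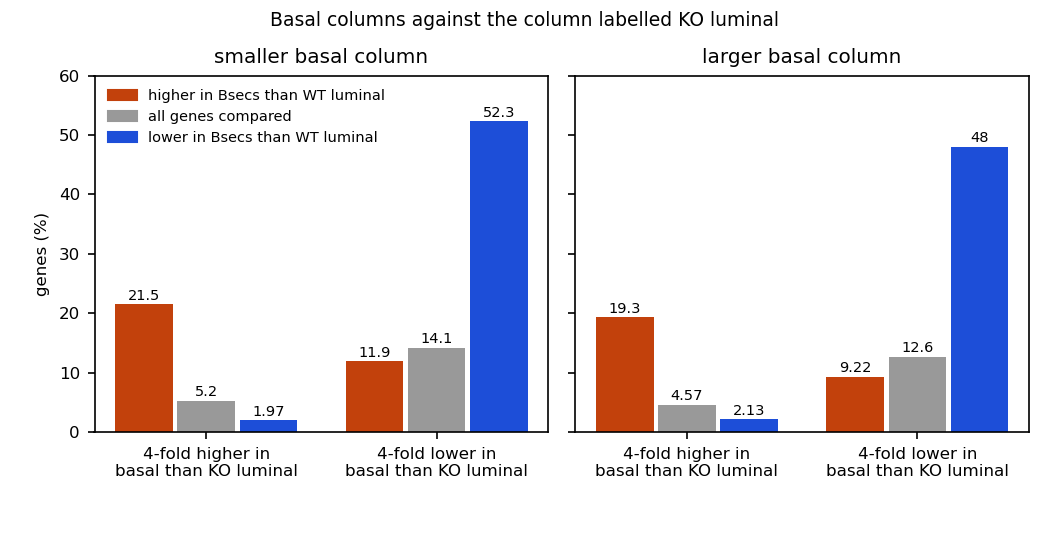
Bars give the percentage of genes at least 4-fold higher or lower in each basal column than in the column labelled KO luminal, for genes higher in Bsecs (orange), all 6352 genes (grey) and genes lower in Bsecs (blue). The grey bars stand at 5.2% and 4.57% higher and 14.1% and 12.6% lower, and the genes of the matching direction at 21.5% and 19.3% and 52.3% and 48.0%. The genes in blue passed the rule on the mean through their WT luminal values and those in orange through their Bsecs values. The grey bars are therefore not a like background for either.

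Single genes show both patterns. On the common scale Krt5 was 3307 in Bsecs, 0.892 in WT luminal cells and 30.4 in KO-labelled luminal cells, with 3177 and 1773 in the smaller and larger basal columns. Col17a1 was 1493, 1.78, 133 and 2636 and 1058 in the same order, and Has2 924, 0.892, 5.78 and 1284 and 809.6. For these genes the Bsecs value lay in or near the range of the basal columns. Krt14 (8945 in Bsecs, 7585 and 2091 in the basal columns) and Dll1 (280.3, 1094 and 233) did likewise.

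Other genes stood far above every other column in Bsecs. Krt15 was 2694 in Bsecs, 6.25 in WT luminal cells and 92.5 in KO-labelled luminal cells, with 41.2 and 45.2 in basal cells. Krt6a was 4914, 113, 356, 3.99 and 54.8 in that order, Inhba 1124, 72.3, 83.1, 1.33 and 6.73, Ifi202b 1325, 2.68, 41.2, 6.64 and 3.85, and Timp3 24550, 520.1, 1186, 1585 and 1748. Some luminal genes had a level in Bsecs that the basal columns did not have. Krt19 was 6449 in Bsecs and 8225 in WT luminal cells against 154 and 35.6 in the basal columns, Cldn4 39060 and 12310 against 5.31 and 359.6, and Foxa1 228 and 239 against 0 and 1.92. Others stood lower in Bsecs than in the basal columns, with Muc1 at 2.11 against 42.5 and 13.5, Gata3 at 182 against 529.9 and 217, Runx1 at 358 against 2935 and 2272, and Lcn2 at 644 against 8838 and 10060. Esr1 was 63.2 in Bsecs, between 947 and 28.9. Each of these values is a single column, and no test calls any of them particular to Bsecs.

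The genes lower in Bsecs differed in the column labelled KO luminal. Prlr was 125 in Bsecs, 15010 in WT luminal cells and 7786 in KO-labelled luminal cells, and Ltf 4.21, 3681 and 873. Csn3 was 3.16, 3507 and 650.6, and Alox15 1.05, 736 and 841.5. For each of these, which were named for their large folds, the column labelled KO luminal was far nearer to WT luminal cells than to Bsecs on a log scale. Not all lower genes shared this. In the same order Plin2 was 9.48, 201.6 and 39.8 and S100a8 0, 161.5 and 5.06, each nearer to Bsecs on a log scale with 1 added.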

How the data were processed

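RNA of sorted mammary epithelial cells was extracted with TRIzol, amplified with the Ovation RNA-seq V2 kit and made into libraries with the Ovation Ultralow DR kit, per the labels' protocols. Samples were grouped by their titles. STAR, DESeq and the mm9 build are named per the submitters' processing notes. The counter, annotation and strand setting were not given in the sources used here, so overlapping and antisense genes are uncertain.

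Per the file headers, the authors deposited for each comparison a mean signal per group, in normalised reads, a ratio and a p-value. The deposited ratio runs WT luminal over Bsecs (100% of values within 0.01) and was recomputed in the other direction. The deposited log2 column was not used, since part of it holds spreadsheet errors. For 100% of values (within 0.01) each signal column is a whole multiple of 1 step, 1.109 in Bsecs and 0.901 in WT luminal cells, which gave whole reads. Whether both libraries of a group went into its column is not stated. The deposited p-values compare 1 column with 1 column. They were adjusted by Benjamini-Hochberg over all genes with one, at 0.05. The Bsecs reads and the WT luminal reads were the same in every table that holds them (0 genes differed), and no further columns per sample were found. The other columns were not compared between tables gene by gene. Spreadsheet dates or duplicates affected 27 symbols, which were left out of results per gene.

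A gene was called at 4-fold among genes with a mean of 50 or more, without a pseudocount. Medians of lists use log2 of values plus 1 over all matched members, of 757 entries in 40 lists (7 unmatched). The common scale uses median-of-ratios factors over the 5 columns. Reads carry no molecular identifiers and PCR copies count as separate reads, so the intervals and the floor reflect counting error alone. The members and lists were chosen with earlier results of these data known. Named genes are Bptf, up to 15 per direction with the largest fold and more than 3 reads in both columns, passing over predicted genes and small RNAs, up to 5 per direction with 3 or fewer reads in 1 column, and up to 4 called members and the first 4 members of each list; other genes were chosen after their values were seen, and a few genes the rule names are not reported here. Alternatives were other minimum means, folds, scales, pseudocounts and adjustments, and edgeR's exact test with assumed dispersions of 0.16 and 0.4. Steps across genes were tested on simulated data. Python 3.11.15, numpy 2.4.6, scipy 1.17.1, pandas 2.3.3, matplotlib 3.10.9, R 4.3.3 and edgeR 4.0.16 were used. Promoters come from RefSeq records on GRCm38.p6, another build than mm9, so no coordinates of the files are given.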

Additional observations from a re-analysis of the deposited data

How the results depend on the processing

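No paired analysis was possible because the deposited tables hold 1 column per group and no library, and for the same reason no replicate could be left out. The 586 genes at least 4-fold higher and the 610 lower became 389 and 335 with a minimum mean of 100, 1147 and 1598 with no filter, 1617 and 1327 at 2-fold, 241 and 294 at 8-fold, and 259 and 1196 with totals that include Rn45s. The lower genes numbered 1155 with a minimum mean of 20 and 402 with the whole interval past 4-fold. TMM factors gave 581 and 618, and requiring more than 3 reads in both columns, an alternative chosen after seeing the data, gave 529 and 543. The authors' p-values, adjusted by Benjamini-Hochberg, gave 17 higher and 13 lower genes, and 27 and 21 when adjusted over genes with a mean of 50 or more. edgeR's exact test called 747 and 1229 at an assumed dispersion of 0.16 and 52 and 54 at 0.4, so these counts follow a spread that the files do not hold. Of 40 lists, 11 had a median log2 ratio of 1 or more, against 5 with a pseudocount of 10 and 6 with totals without Rn45s. The fibroblast median of 1.42 became -1.9 over the 3 members with a mean of 50 or more. List medians changed sign for 0 lists with TMM factors, 2 with totals without Rn45s and 4 with totals including it. Of 80 values of named genes with totals without Rn45s and with TMM factors, 74 stayed within their counting interval and 6 moved outside it. These scales change every log2 ratio by -0.32 and -0.01. The called genes among them were named for large folds, so none could change sign. Depth limits genes near 0 in a column, where intervals are wide.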
